A study of Homo sapiens with 2 samples.

Results

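The antigen receptor loci are the 6 regions of the genome that lymphocytes cut and rejoin to make their receptors. They were taken by position on hg19, as all 1 kb bins between 22090001 and 23021000 on chromosome 14 (TRA/TRD), 141999001 and 142511000 on chromosome 7 (TRB), 38279001 and 38408000 on chromosome 7 (TRG), 106032001 and 107288000 on chromosome 14 (IGH), 89157001 and 90274000 on chromosome 2 (IGK), and 22380001 and 23265000 on chromosome 22 (IGL). They held 931, 512, 129, 1256, 1117 and 885 bins, 4830 of 2880076 autosomal bins in all. The cells were HCT116, a human colorectal carcinoma line in untreated culture, and ChIP-seq measured H3K27me3, a histone mark of Polycomb-silenced chromatin. The series had 1 group of 2 libraries, with 53187504 reads in replicate 1 and 97031399 reads in replicate 2, and input libraries were not analysed here. The labels call the libraries biological replicates without naming separate cultures, so the spread between them may be technical. The level of a bin is its read count over the mean of the library's listed autosomal bins, so the median listed bin, with 9 reads in replicate 1 and 14 in replicate 2, stood at 0.409 and 0.373. A bin missing from a file counts as 0. The mean over all autosomal bins was therefore not 1 but 0.819 in replicate 1 and 0.876 in replicate 2.

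A receptor locus is an array of gene segments. Variable (V), diversity (D) and joining (J) segments are joined by the RAG recombinase in developing lymphocytes, and the joined exon is spliced to a constant (C) gene. TRA, TRB, TRG and TRD encode the T cell receptor chains, with TRD lying inside TRA, and IGH, IGK and IGL encode the antibody heavy chain and the kappa and lambda light chains. The segments are rearranged and expressed in T or B cells. In cells of other lineages the loci are unrearranged, and Polycomb repressive complex 2, which writes H3K27me3, is known to cover silent developmental and lineage genes. Constant genes lie at the high-coordinate end of TRA/TRD, TRB and IGL and at the low-coordinate end of TRG, IGH and IGK. In TRB a V segment, TRBV30, lies beyond the constant genes and closes what is here called the constant end. In the RefSeq gene table, which is on GRCh38 and served only for names and order, the V segments with their pseudogenes number 57 in TRA/TRD, 61 in TRB, 14 in TRG, 127 in IGH, 76 in IGK and 72 in IGL. From the constant end IGH runs from IGHA2 and IGHE through the IgG genes to IGHD, IGHM, the J and D segments and then the V segments. IGK has the single constant gene IGKC and a V array that is largely present a second time, in opposite orientation, with a D in the names of the distal copies. IGL has 7 pairs of J and C segments behind its V array.

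Some of the loci also hold coding genes that are not receptor segments. RefSeq places OR10G2, OR4E2 and OR4E1, which encode olfactory receptors, among the V segments of TRA/TRD, and PRSS1 and PRSS2, which encode trypsinogens of the pancreas, between most V segments and the D, J and C segments of TRB. In IGL it places VPREB1, which encodes a part of the surrogate light chain of early B cells, and ZNF280B, ZNF280A, PRAME, GGTLC2 and IGLL5. Of the 12 coding genes inside the 6 loci, TARP of TRG included, 8 had a sequence in the RefSeq promoter table. Polycomb in mammals is known for targeting CpG-rich start sites, so 1 promoter window is shown for each locus with such a gene, as 300 bases running from 250 before to 50 after the gene start on GRCh38.p14, with each CpG (the letters CG) in capitals.
OR4E2 (chr14:21653585-21653884, plus strand): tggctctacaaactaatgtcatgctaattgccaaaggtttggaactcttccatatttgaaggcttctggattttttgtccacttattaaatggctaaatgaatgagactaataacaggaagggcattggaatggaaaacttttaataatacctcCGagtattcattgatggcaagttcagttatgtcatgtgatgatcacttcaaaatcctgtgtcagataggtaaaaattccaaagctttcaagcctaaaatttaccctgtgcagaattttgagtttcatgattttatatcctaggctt
PRSS1 (chr7:142749222-142749521, plus strand): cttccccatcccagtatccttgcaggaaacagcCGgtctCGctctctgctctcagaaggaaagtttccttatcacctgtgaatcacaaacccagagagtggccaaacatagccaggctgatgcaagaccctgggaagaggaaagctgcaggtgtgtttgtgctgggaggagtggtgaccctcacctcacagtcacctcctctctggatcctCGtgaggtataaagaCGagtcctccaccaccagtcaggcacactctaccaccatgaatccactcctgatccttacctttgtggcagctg
VPREB1 (chr22:22244536-22244835, plus strand): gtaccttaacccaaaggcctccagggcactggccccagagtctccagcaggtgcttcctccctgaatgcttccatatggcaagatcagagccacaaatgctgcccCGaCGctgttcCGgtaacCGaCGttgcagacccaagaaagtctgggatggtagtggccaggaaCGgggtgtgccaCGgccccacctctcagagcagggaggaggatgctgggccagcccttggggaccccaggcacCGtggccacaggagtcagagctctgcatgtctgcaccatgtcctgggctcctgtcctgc
OR4E2 held 1 CpG, PRSS1 held 4 and VPREB1 held 8, against a median of 14 over 35116 promoters of the same length, of which 96.0% held at least 1. The 8 matched genes have 10 windows, which held between 1 and 13 CpG, the most in those of PRAME with 13, 12 and 4. The V segments themselves have no entry in that table. No gene is assigned to a bin of the files, because hg19 gene positions did not enter the analysis; a gene named beside a stretch says only which side of the locus RefSeq orders it on.

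The 6 loci carried more H3K27me3 than the autosomes as a whole, and they did so very unequally. Of their bins, 2033 (42.1%) were enriched in both libraries, beside 11.5% of all autosomal bins; enriched means a Benjamini-Hochberg adjusted p under 0.05 in a one-sided Poisson test over all autosomal bins and a level of at least 2. The loci made up 0.168% of the autosomal bins and received 0.467% of the autosomal reads in replicate 1 (Wilson 95% interval 0.465 to 0.469) and 0.463% in replicate 2 (0.461 to 0.464), intervals that cover counting error only. The mean level over all bins of the loci, in which longer loci weigh more, was 2.35 ± 0.0976 (SD, n = 2). With a fold minimum of 3 the share was 32.5%, beside 6.90% of all autosomal bins, and among bins listed in both libraries it was 49.3%, beside 14.5%. Called in 1 library alone it was 44.1% in replicate 1, beside 12.6%, and 45.3% in replicate 2, beside 13.5%. All counts of enriched bins describe these libraries, since bins next to each other are not independent and no input library was analysed.

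TRA/TRD stood highest, and its mark ran through nearly the whole locus. It averaged 4.72 in replicate 1 and 5.03 in replicate 2, and 849 of its 931 bins (91.2%) were enriched. Levels under 0.5 were rare, at 0.430% of its bins in replicate 1 and 0.322% in replicate 2, against 65.2% and 62.9% of all autosomal bins. TRB followed at 3.28 and 3.44, with 322 of 512 bins (62.9%) enriched. IGL had 2.79 and 2.96, with 479 of 885 bins (54.1%) enriched. TRG, the shortest locus, had 2.32 and 2.53, with 73 of 129 bins (56.6%) enriched.

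IGK and IGH were the low loci. IGK averaged 1.07 in replicate 1 and 1.13 in replicate 2, with 199 of 1117 bins (17.8%) enriched. IGH had 0.774 and 0.815, with 111 of 1256 bins (8.84%) enriched, a share below the 11.5% of all autosomal bins. The mean level over all autosomal bins was 0.819 and 0.876, below IGK and above IGH. The median bin of these loci was lower still, at 0.273 and 0.293 in IGK and 0.364 and 0.373 in IGH, close to the autosomal median over all bins of 0.273 and 0.293. By the median bin IGH thus stood above IGK. The medians of the other loci were near their means, between 2.41 in TRG in replicate 1 and 5.01 in TRA/TRD in replicate 2.

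The order of the mean levels, TRA/TRD, TRB, IGL, TRG, IGK and IGH, was the same in both libraries, and no neighbours in it overlapped. The levels of all loci come from the same 2 libraries and are paired within each, and with so few libraries no test between loci was made. TRA/TRD and IGH lie on the same chromosome and differed 6.10-fold in replicate 1 and 6.17-fold in replicate 2. TRB and TRG share chromosome 7 and differed 1.41-fold and 1.36-fold. Loci on different chromosomes also differ in the mean level of the listed bins of their chromosome. This mean takes in the mark along the chromosome as well as its copy number, which is not corrected. Scaling to it does not separate them. That mean was 1.33 and 1.32 on chromosome 22, 0.868 and 0.859 on chromosome 7, 0.899 and 0.902 on chromosome 2, and 1.03 in each library on chromosome 14. Scaled to its own chromosome, TRG stood at 2.68 and 2.95 and IGL at 2.10 and 2.24, so the order of this pair turned. Whether the 3 T cell loci stood above the 3 B cell loci thus depended on the measure. On the autosomal scale IGL lay above TRG, whereas scaled to their own chromosomes all 3 T cell loci lay above all 3 B cell loci in both libraries. The enriched shares also put TRG, at 56.6%, above IGL, at 54.1%, but with a minimum of 3-fold TRG had 32.6% and IGL 40.6%. The shares of all autosomal bins at these settings were 11.5% and 6.90%.

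**Figure D1:**
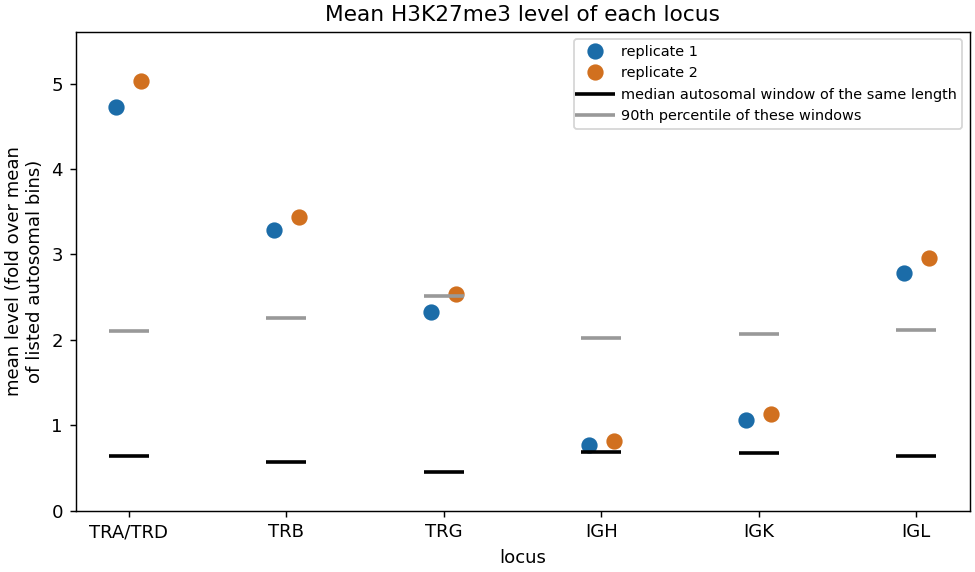
Mean H3K27me3 level (y axis, fold over the mean of listed autosomal 1 kb bins) of each locus (x axis), with 1 point per library. Black and grey bars are the median and the 90th percentile of autosomal windows of the same length, averaged over the libraries. TRA/TRD, at 4.72 and 5.03, TRB and IGL lie above the grey bar, TRG lies beside it, and IGK and IGH lie below it.

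Set among all autosomal windows of its own length, at steps of 10 kb and with at least 50% of bins listed in both libraries, TRA/TRD ranked at percentile 99.99 in each library. TRB ranked at 97.2 in replicate 1 and 97.0 in replicate 2, IGL at 96.4 and 96.3, and TRG at 89.2 and 89.6. IGK ranked at 69.0 and 68.6, and IGH at 56.1 and 55.5, near the middle of the genome. These windows overlap, so the ranks are a description.

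Replicate 2 read higher than replicate 1 in all 6 loci, by 1.05 to 1.09 times. The files list 81.9% of autosomal bins in replicate 1 and 87.6% in replicate 2, and the scale is the mean of these listed bins. With the mean over all autosomal bins as the scale, the ratio of replicate 2 to replicate 1 was between 0.980 in TRB and 1.02 in TRG. That scale was chosen after the data were seen, and it multiplies the ratio of every locus by the same factor. The cause of the difference between the libraries was not tested.

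Each locus was then cut into 10 equal parts, numbered from the variable end (1) to the constant end (10), to see where within it the mark lay. TRA/TRD was marked over nearly all of its length. All 10 parts were at or above 2, the lowest at 3.87 in replicate 1 and 4.14 in replicate 2 (part 3), and each had between 85.0% and 96.8% of its bins enriched. Parts 3 to 8 stood between 3.87 and 4.69 over both libraries, and the level was higher towards the constant end. Part 8 had 4.46 and 4.56, part 9 had 6.55 and 6.85, and part 10, on the side that RefSeq ends with TRAC, the constant gene of the alpha chain, had 6.16 and 6.61. RefSeq orders the delta segments, the alpha J segments and the constant genes on this side. The longest enriched runs, joining gaps of at most 2 bins, covered 192 kb from the variable edge at 22090001 to 22282000, at 4.88 and 5.08, and 168 kb from 22838001 to 23006000, at 6.84 and 7.23, ending 15 kb before the constant edge. With no gap joined the longest run was 102 kb, and with gaps of 5 bins it was 508 kb. Outside the locus the level was lower on the constant side, where the next 100 kb, towards DAD1, held 0.943 and 0.998. On the variable side it was 2.49 and 2.66. The level inside was 2.76 times that of the flanks in replicate 1 and 2.75 times in replicate 2.

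TRB was marked over most of its length, with 8 of 10 parts at or above 2. The highest was part 9, at 5.16 in replicate 1 and 5.58 in replicate 2, where 51 of 51 bins were enriched. The longest run, 86 kb from 142390001 to 142476000, at 5.27 and 5.56, lay mostly in it and ended 35 kb before the constant end. Parts 3 to 5 stood between 2.88 and 4.03 over both libraries. The low parts, part 2 at 0.351 and 0.370 and part 6 at 0.998 and 1.05, overlap the long stretches of this locus with no read in either library. These covered 49 kb each, from 142049001 to 142098000 and from 142277001 to 142326000. Over its listed bins TRB had 4.06 and 4.26. The 100 kb beyond the constant end had 3.26 and 3.45 and those beyond the variable end 3.76 and 4.22, so the level did not end with the locus.

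TRG was split in 2. From the constant end to part 4 it was marked, with levels between 2.42 and 4.69 over both libraries and the highest value in part 7 (4.23 in replicate 1 and 4.69 in replicate 2, with 13 of 13 bins enriched). Parts 1 to 3, at the far end of the V array, lay between 0.111 and 0.375. They had 0 of 39 bins enriched, beside 11.5% of all autosomal bins. The marked side formed a run of 74 kb from 38280001 to 38354000, at 3.46 and 3.76, which starts 1 kb inside the constant end. With no gap joined the longest run there was 19 kb. The low side formed a run of 33 kb under 0.5 from 38375001 to 38408000, at 0.191 and 0.208. RefSeq has TRGV1 as the outermost V segment there and TRGC2, a constant gene, at the opposite end. Beyond the low side the next 100 kb, towards AMPH, had 3.19 and 3.54, so the low stretch lay between higher ones.

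IGH was unmarked over most of its V array. Parts 1 to 5 stood between 0.176 and 0.404 over both libraries with 0 of 630 bins enriched, and a run under 0.5 covered 395 kb from 106881001 to 107276000, at 0.179 and 0.213. The level was higher towards the constant side, with 0.798 and 0.875 in part 6, 1.48 and 1.54 in part 7, and 2.18 and 2.19 in part 8, the only one at or above 2. It was 1.43 and 1.55 in part 9 and lower again in part 10, at 0.707 ± 0.0102 (SD, n = 2), which RefSeq starts with IGHA2. The longest enriched run covered 30 kb from 106274001 to 106304000, at 3.62 and 4.13, and lay 242 kb inside the constant end; with no gap joined the longest was 19 kb. By the mean of both libraries the highest 1 kb bin, from 106341001 to 106342000, reached 9.04 and 7.89; in replicate 2 alone another bin was higher, at 8.10. The mark in IGH was thus highest neither at the constant edge nor in the distal V array but between them.

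IGK had its mark at the constant end. Part 10 stood at 4.54 in replicate 1 and 4.78 in replicate 2, with 103 of 111 bins enriched, and the levels before it were 2.11 and 2.26 in part 9, 1.54 and 1.64 in part 8 and 1.08 and 1.15 in part 7. The longest enriched run, 125 kb from 89157001 to 89282000, at 4.53 and 4.76, starts at the constant edge of the locus, the side on which RefSeq has IGKC. With no gap joined the longest run was 32 kb. The locus had marked chromatin beyond that edge too, as the next 100 kb, towards RPIA, had 3.78 and 4.09. Parts 1 to 3, on the distal side, stood between 0.193 and 0.284 with 0 of 336 bins enriched. A single 10 kb step at 380 kb from the variable end, at 3.68 and 3.62, stood out among unmarked steps. Only 70% of its bins were listed in either library, and an unlisted run of 8 kb, from 89891001 to 89899000, reached into it. Without an input library, whether these reads reflect the mark was not tested. In the middle, 203 kb from 89627001 to 89830000 had no read in either library.

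IGL was marked in blocks. Of its parts 7 were at or above 2, the highest being part 5, at 4.69 and 4.97, which overlaps the longest enriched run of 115 kb from 22681001 to 22796000 (5.17 and 5.56); with no gap joined the longest was 45 kb. Parts 3, 6 and 7 were low, at 1.06 and 1.03, 0.856 and 0.892, and 1.41 and 1.58. A run under 0.5 covered 66 kb from 22613001 to 22679000, at 0.147 and 0.124, across the border of parts 3 and 4. Another of 35 kb from 22830001 to 22865000, at 0.152 and 0.196, lay in part 6. Parts 8 to 10, towards the J and C pairs, stood between 3.19 and 4.23 over both libraries. The 100 kb past the constant end had 2.84 and 3.10, close to the locus, and those past the variable end had 1.12 and 1.23.

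**Figure D2:**
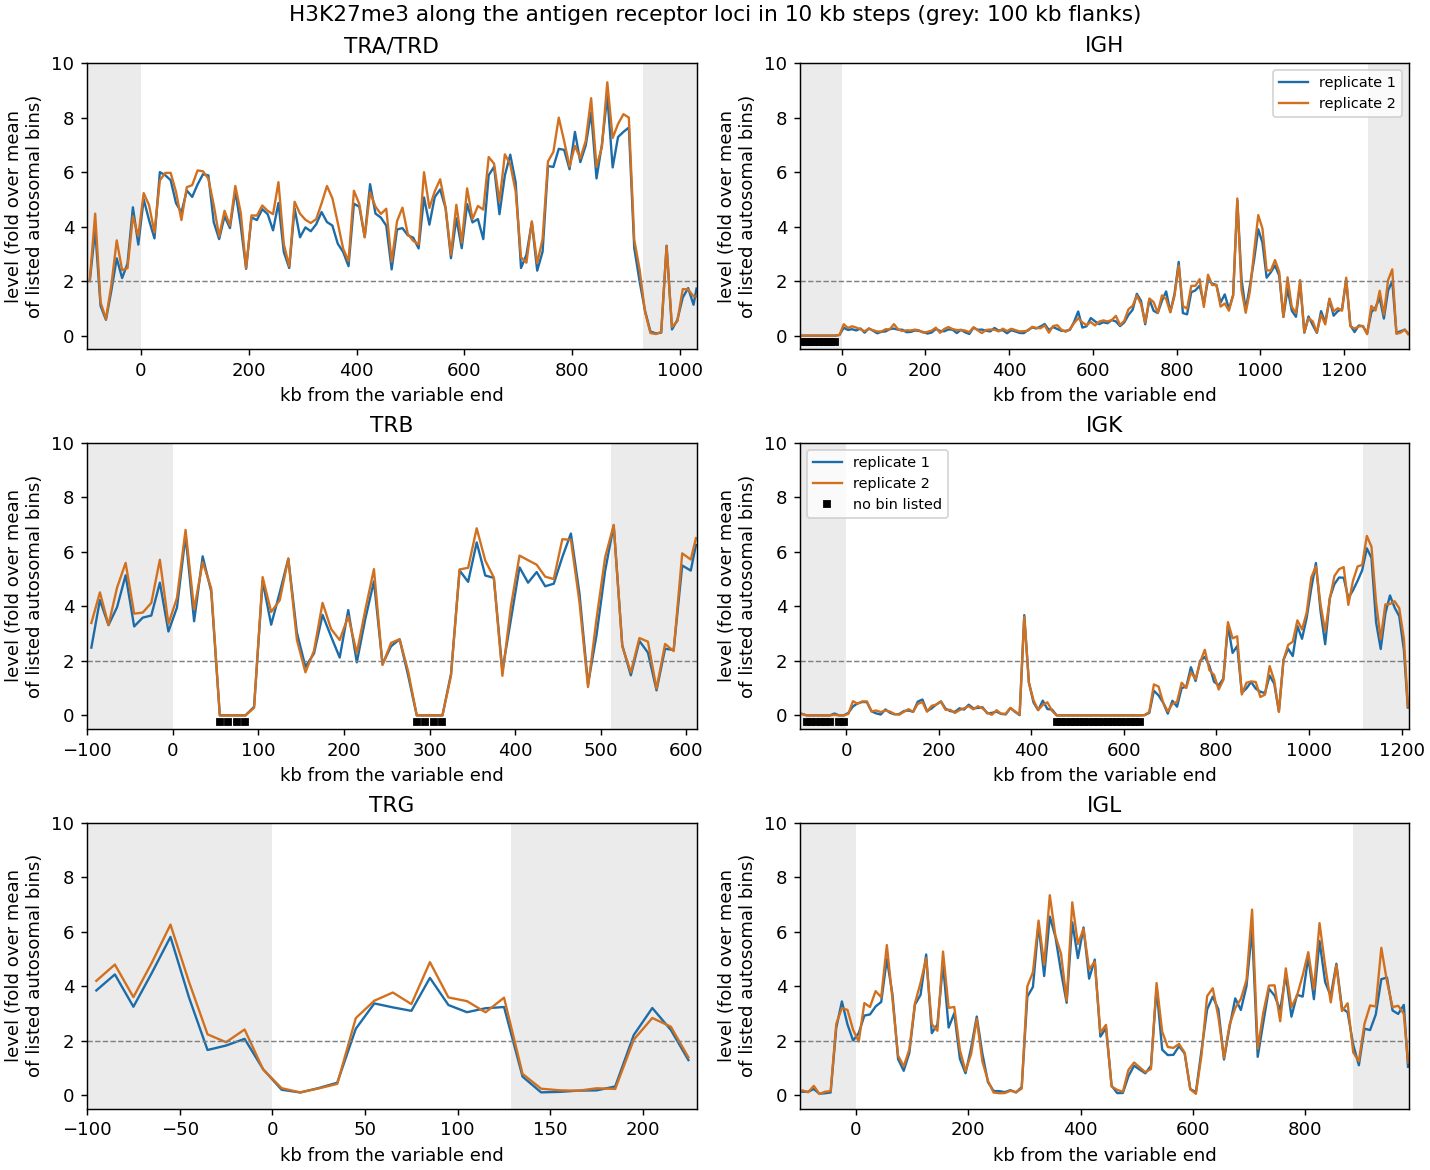
H3K27me3 level (y axis, fold over the mean of listed autosomal bins) in 10 kb steps against the distance in kb from the variable end (x axis), in replicate 1 (blue) and replicate 2 (orange), with 100 kb flanks in grey, the level of 2 as a dashed line and steps without any listed bin as black squares. TRA/TRD stays above 2 up to the last 2 steps at its constant end, IGH and IGK are near 0 on the variable side, and the lines of the libraries follow each other.

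**Figure D3:**
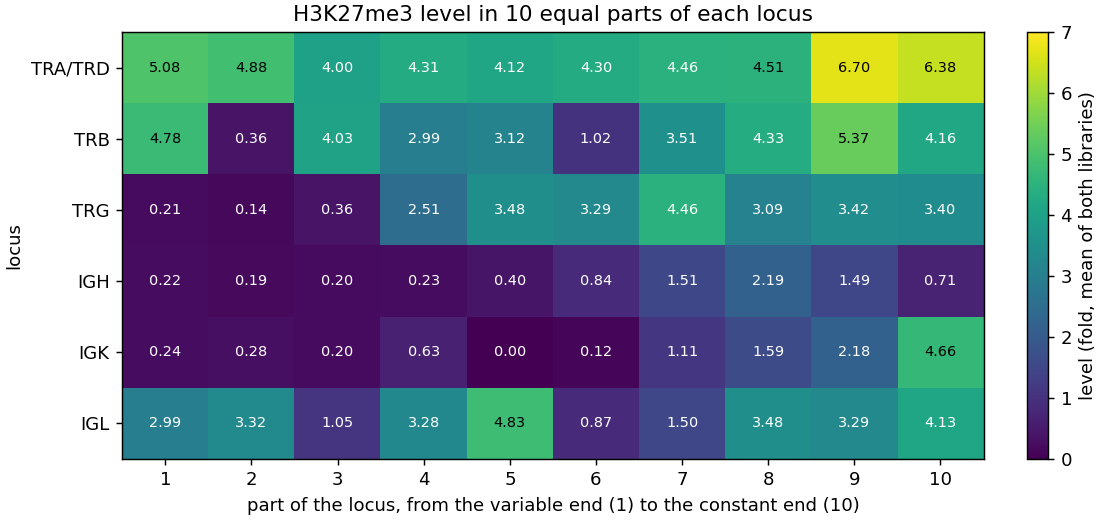
Level of each part (columns, from the variable end at 1 to the constant end at 10) of each locus (rows), as the mean of both libraries in fold, with the colour scale running from 0 to 7. TRA/TRD is high in all 10 columns, parts 1 to 3 of TRG and 1 to 5 of IGH are dark, and IGK is brightest in part 10.

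The constant and variable ends were compared over the outermost 10% of the bins on each side. The constant end was higher in 5 of 6 loci, in both libraries. The gap was widest in IGK, with 4.54 at the constant end and 0.220 at the variable end in replicate 1, and 4.77 and 0.254 in replicate 2, a ratio of 20.6 and 18.8. TRG had 3.20 and 0.175 in replicate 1, and 3.30 and 0.240 in replicate 2, a ratio of 18.3 and 13.8; its variable end rests on 50 reads in replicate 1 and 117 in replicate 2. IGH had 0.695 and 0.193 in replicate 1, and 0.709 and 0.250 in replicate 2, a ratio of 3.60 and 2.84. In these 3 loci 0 bins of the variable end were enriched, out of 112 in IGK, 126 in IGH and only 13 in TRG. The share of all autosomal bins was 11.5%, so 0 of 13 bins says little.

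In the other loci both ends were marked. TRA/TRD had 6.16 at the constant end and 5.01 at the variable end in replicate 1, and 6.61 and 5.18 in replicate 2. IGL had 4.02 and 2.91 in replicate 1, and 4.23 and 3.12 in replicate 2. TRB, whose constant end is closed by the V segment TRBV30, was the exception, with 4.12 at the constant end and 4.78 at the variable end in replicate 1, and 4.20 and 4.96 in replicate 2. Each of these differences was larger than the difference between the libraries at the same end. The direction turned in a pair of loci with the width of the ends: TRB had a ratio of 1.88 over the outermost 20%, which takes in an unlisted stretch, and 1.20 between its 2 equal sides, where IGL had 0.858. The ratio of TRG was 4.96 with ends of 50 kb and 2.76 between its 2 equal sides, and that of IGH between 1.95 with ends of 50 kb and 5.46 between its 2 equal sides. That of IGK was 12.7 with ends of 50 kb and 7.12 between its 2 equal sides.

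**Figure D4:**
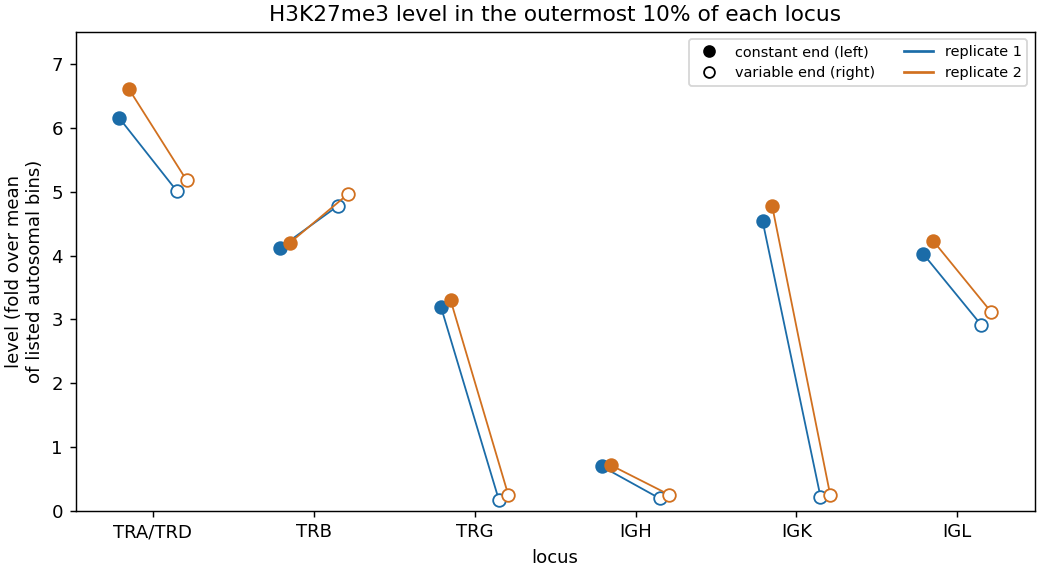
H3K27me3 level (y axis, fold) in the outermost 10% of each locus (x axis) at its constant end (filled, left) and its variable end (open, right), with 1 line per library. The lines slope down steeply from left to right in TRG and IGK and less so in TRA/TRD, IGH and IGL, and they slope up in TRB, whose variable end was higher.

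The share of bins listed in the files differed between the loci and did not follow the order of their levels. In replicate 1 it was 99.8% in TRA/TRD, 96.9% in TRG, 95.7% in IGL, 88.5% in IGH, 80.9% in TRB and 70.4% in IGK, and in replicate 2 it was 99.8%, 95.3%, 96.3%, 95.7%, 80.9% and 72.2%, beside 81.9% and 87.6% of all autosomal bins. In TRB the 98 bins missing from both files are the 2 stretches of 49 kb. In IGK the 203 kb stretch made up most of the 275 bins missing from both. Thinning replicate 2 to the depth of replicate 1 left its share at 80.9% in TRB and 70.7% in IGK, while in IGH it was 93.1%.

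Among the 60 parts, the 35 at or above 2 in both libraries had a median of 100% of bins listed in both, with a lowest value of 62.7%. The 14 under 0.5 in both had a median of 75.4%, from 0 to 89.7%. A bin with few reads is more likely to be missing, and a bin where reads cannot be placed is missing too; the files do not tell these apart, and their part in the low levels was not tested. Counting listed bins alone raised IGK to 1.51 in replicate 1 and 1.56 in replicate 2 and TRB to 4.06 and 4.26. With the same count IGH stood at 0.874 and 0.851 and stayed the lowest locus. At the distal ends of the V arrays, 75.9% and 79.5% of bins were listed in IGK, 83.3% and 92.9% in IGH, and 84.6% and 92.3% in TRG, whereas the constant end of IGK and of TRG was listed at 100% in each library. The duplicated V segments of IGK are a place where reads can fit more than one position, and how such reads were treated is not given in the sources used here. Beyond the variable ends of IGH and IGK only 2 and 5 of 100 bin positions were listed in either library, so no level is given there. Flank positions past the last listed bin of a chromosome were filled with 0.

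**Figure D5:**
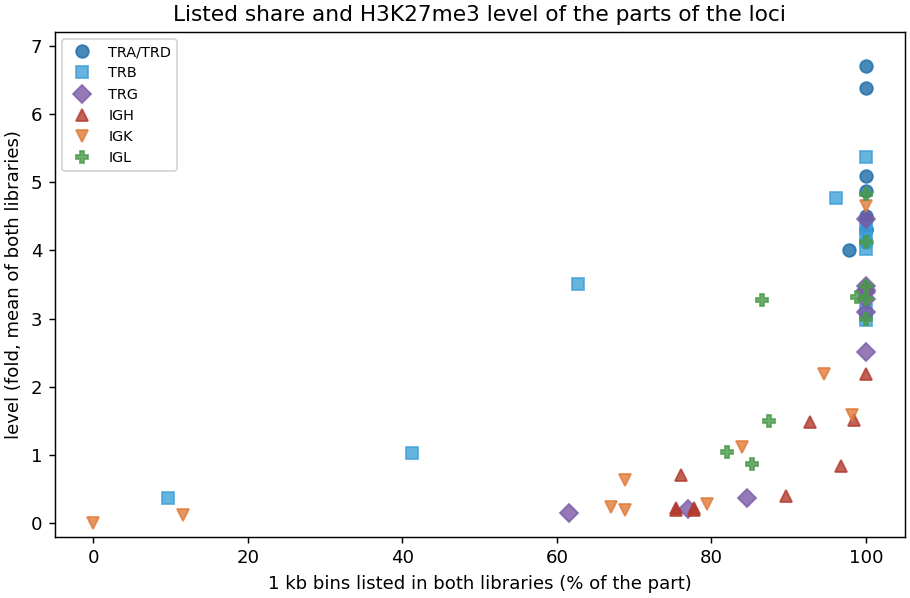
Share of 1 kb bins listed in both libraries (x axis, percent) against the H3K27me3 level (y axis, fold, mean of both libraries) of each part, with 1 symbol per locus. Parts at or above 2 lie at or near 100%, apart from 1 each of TRB (62.7%) and IGL, and the parts under 0.5 spread from 0 to 89.7%.

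Within the loci the libraries followed each other bin by bin. Across 1 kb bins, Pearson's r of log2(level + 0.1) was 0.989 in TRB, 0.957 in IGL, 0.956 in IGK, 0.944 in TRG, 0.907 in TRA/TRD and 0.854 in IGH, and Spearman's rho was between 0.825 in IGH and 0.960 in IGL. These are descriptions across bins that share their libraries and their neighbours. TRB held both empty and strongly marked stretches, TRA/TRD was high over nearly all of its length, and most bins of IGH held few reads.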

How the data were processed

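Each library has 1 deposited file of raw counts, the number of reads in each bin of 1000 bases per the file headers; the authors list no bin without a read. The submitters' processing notes name BWA 0.7.12 and the build hg19, or GRCh37. How reads were counted, and the treatment of duplicates, of mapping quality and of reads that fit several places, is not given in the sources used here. These steps bear on repeated V segments. Counts were divided by each library's mean over listed autosomal bins. The autosomes run to the last listed bin. Tests used scipy 1.17.1, tables pandas 2.3.3 and numpy 2.4.6, and figures matplotlib 3.10.9, under Python 3.11.15. The Poisson test takes reads as independent. With 1 group there is no comparison between conditions, and values are per library or mean and SD with n = 2. Named stretches are the 10 equal parts, the longest enriched, unlisted and low runs, and the highest bin; low runs, the highest bin and the 10 kb step in IGK were chosen after their values were seen. The loci and measures were chosen with earlier results of these data known. Copy number is not corrected.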

Additional observations from a re-analysis of the deposited data

How the results depend on the processing

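The causes of the changes below were not tested. The mean level over all bins of the loci, 2.35, became 2.58 over listed bins and 2.00 as the median bin. It was 6.03 scaled to the median listed autosomal bin and 2.77 scaled to the mean of all autosomal bins. With a replicate left out it was 2.28 to 2.42. The enriched share of 42.1% stayed within 1.5 times, from 32.5% at a minimum of 3-fold to 49.3% of bins listed in both libraries, and 44.1% to 45.3% with a replicate left out. Of single loci, at 3-fold TRG became 32.6%, IGK 11.5% and IGH 3.90%, beside 6.90% of all autosomal bins. With no fold minimum IGH was 13.4%. No share of all autosomal bins is given for that setting, so this value cannot be set against the autosomes. At the minimum of 2-fold IGH had 8.84%, beside 11.5% of all autosomal bins. The constant end was higher in 5 of 6 loci, and in 5 with either replicate left out. Over the outermost 20% it was higher in all 6. There the variable side of TRB takes in a 49 kb stretch without reads, counted as 0, so its turn cannot be read as a difference in mark. The ratio turned in TRB to 1.88 at 20% and 1.20 between 2 equal sides, and in IGL to 0.858 between 2 equal sides. The listed share of 88.4% became 78.9% with at least 5 reads, and 87.2% to 89.6% with a replicate left out. The level inside exceeded the mean of both flanks in 4 of 6 loci, also with either replicate left out. IGH counts among them through a variable flank with 2 of 100 bins listed, and against its constant flank it was lower, at 0.774 inside and 0.809 outside in replicate 1, and 0.815 and 0.935 in replicate 2. Of the 4 loci with over 50% of bins listed in both flanks, the level inside was higher in 3. Of these 3, TRG was below its variable flank, at 2.32 inside and 3.19 outside in replicate 1, and 2.53 and 3.54 in replicate 2. IGL was below its constant flank, at 2.79 and 2.84 in replicate 1, and 2.96 and 3.10 in replicate 2. Only TRA/TRD was above each of its flanks. Ratios that turned were TRG at 0.970 and IGK at 1.01 with flanks of 250 kb, and TRB at 1.13 and IGH at 0.813 over listed bins. The longest enriched run of 192 kb became 102 kb with no gap joined and 508 kb with gaps of 5 bins. It was 192 to 196 kb without 1 of the replicates. The median Pearson's r of 0.950 became 0.960 with a pseudocount of 1 and 0.988 with 5 kb bins. Scaling to all autosomal bins and the 2 equal sides were added after the data were seen. The depth behind the low stretches is small, with 50 and 117 reads at the variable end of TRG. Samples could not be paired between conditions because the series has no second group. Loci, ends and flanks are paired within a library, and their ratios are taken within each library without a test.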
